A study of Mus musculus with 8 samples.

Results

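The genes described here encode the proteasome: the subunits of its core and regulatory particles, its activators and the factors that assemble it. They were chosen by gene symbol, as every gene on the array whose symbol begins with Psma, Psmb, Psmc, Psmd, Psme, Psmf or Psmg followed by a digit. Of 14776 genes named on the array, 46 met this rule. Of these, 43 were proteasome genes with a value and 1, Psmc1, a subunit of the ATPase ring, had no value on any array. The other 2, Psmc3ip and Psme3ip1, share the start of the symbol but encode no proteasome subunit and were counted apart. Psma6, of the alpha ring, and Psmb11, the catalytic subunit of the thymus proteasome, lay below the filter on dim probes, with mean log2 signals of 6.01 and 6.04 in CKO and 6.14 and 6.08 in WT, which left 41 genes to test. Psma8, Psmd1, Psmf1 and Psmg4 were not analysed here.

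Signals came from 8 arrays of virus-specific effector CD8 T cells, 4 from Blimp-1 conditional knockout mice (CKO) and 4 from wild-type littermates (WT). CKO mice carried Prdm1, the gene of the transcriptional repressor Blimp-1, as a pair of floxed alleles (Blimp-1flox/flox) together with a Cre recombinase driven by granzyme B (GranzymeB-cre+), so that deletion follows activation of the cell. Whether WT littermates carried floxed alleles or Cre is not stated in the labels, nor is whether animals were pooled. All mice were infected with the Armstrong strain of lymphocytic choriomeningitis virus (LCMV), and CD8 cells that bound class I tetramers of the viral peptides DbGP33-41 and DbNP396-404 were sorted from spleen on day 8. Values are log2 signals, normalized by the authors, on a scale from 5.33 to 15.15. Each difference is the CKO mean minus the WT mean, in log2 units.

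The proteasome is the large protease complex that degrades proteins tagged with ubiquitin. Its barrel-shaped 20S core has outer rings of alpha subunits that form the gate and inner rings of beta subunits, some of which cut the substrate. The 19S particle caps the barrel: its ATPase ring unfolds substrates, and its non-ATPase subunits bind and remove ubiquitin. In lymphocytes, and in other cells exposed to interferon gamma, the catalytic subunits Psmb5, Psmb6 and Psmb7 are replaced by Psmb8, Psmb9 and Psmb10 to give the immunoproteasome, and the activator PA28, made of Psme1 and Psme2, can take the place of the cap. These forms favour peptides that fit class I molecules. Activated T cells depend on the proteasome during rapid growth.

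The promoters of 3 genes are shown because the results below turn on them: the assembly factor Psmg1 and the non-ATPase subunit Psmd8, which rose in CKO cells, and the activator subunit Psme1, the immunoproteasome gene nearest to the threshold. Each window runs from 250 bases before to 50 bases after the annotated start, 5′ to 3′ on the strand of the gene, from RefSeq on build GRCm38.p6. The windows are chr16:95990911-95991210 on the minus strand for Psmg1, chr7:29180624-29180923 on the minus strand for Psmd8 and chr14:55578244-55578543 on the plus strand for Psme1. Capitals mark every match, on either strand, to the 5 motifs named in the next paragraph.
Psmg1: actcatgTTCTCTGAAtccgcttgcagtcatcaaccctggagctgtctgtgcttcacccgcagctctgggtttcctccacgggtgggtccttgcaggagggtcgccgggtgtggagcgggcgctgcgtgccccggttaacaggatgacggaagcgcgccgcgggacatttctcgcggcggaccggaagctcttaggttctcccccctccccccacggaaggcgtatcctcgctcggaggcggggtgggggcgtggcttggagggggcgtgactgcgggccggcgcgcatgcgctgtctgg
Psmd8: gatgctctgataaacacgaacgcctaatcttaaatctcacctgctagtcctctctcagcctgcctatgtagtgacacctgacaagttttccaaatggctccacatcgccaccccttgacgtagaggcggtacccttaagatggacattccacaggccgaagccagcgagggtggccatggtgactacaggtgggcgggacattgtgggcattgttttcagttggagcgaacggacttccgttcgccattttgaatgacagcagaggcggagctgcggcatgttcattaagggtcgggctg
Psme1: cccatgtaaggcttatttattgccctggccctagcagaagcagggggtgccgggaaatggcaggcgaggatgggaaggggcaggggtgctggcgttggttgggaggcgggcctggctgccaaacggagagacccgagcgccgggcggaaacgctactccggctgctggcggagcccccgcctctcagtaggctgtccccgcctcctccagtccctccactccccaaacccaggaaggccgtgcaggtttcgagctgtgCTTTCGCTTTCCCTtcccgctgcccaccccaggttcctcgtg

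Of the 43 proteasome genes, 36 had a window, with 39 windows in all. Members were counted by gene, a gene being matched where any of its windows held the motif. The share over all windows counts single windows, so the units differ. The interferon-stimulated response element, searched as GAAA and GAAA with any 2 bases between them, was found in 4 of the 36 (11.1%), those of Psme1, Psmb3, Psmd4 and Psmd9, and in 3.44% of all 32851 windows. The core reported for Blimp-1 binding, AGNGAAAG, was found in 4 (11.1%), those of Psma1, Psmc2, Psmd10 and Psme1, and in 8.63% of all windows. In Psme1 the response element lies just downstream of the start and overlaps both copies of the Blimp-1 core, and the overlapping matches form one run in capitals. The gamma-activated sequence TTCNNNGAA was found in 3 (8.33%), those of Psmb8, Psmd2 and Psmg1, and in 8.3% of all windows. The antioxidant response element TGACNNNGC, which the proteasome regulator Nfe2l1 can bind, was found in 6 (16.7%) and in 12.4% of all windows. The CCAAT box was found in 13 (36.1%) and in 37.4% of all windows. The window of Psmd8 held none of these letters. A match describes the sequence and not a site that is bound.

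Samples numbered 2 stood apart in both groups. On the second principal component, with 24.3% of the variance, CKO2 lay at -27.4 and WT2 at -16.0, and these samples had the lowest 18S ribosomal RNA signals, 10.8 and 11.2, against 12.5 to 13.0 elsewhere. Results are therefore also given without this pair. Of the targeted gene Prdm1, 1 probe fell to 6.50 ± 0.15 in CKO against 7.78 ± 0.27 in WT, and the other rose to 9.01 ± 0.29 in CKO against 5.81 ± 0.22 in WT (SD, n = 4 each; limma adjusted p = 0.00121 and 4.43e-06). The positions of these probes relative to the deleted part were not used here, so the opposite shifts do not serve as a check of the labels. T cell markers were bright in every sample. Of the 5 listed, 4 were measured, with a summed linear signal of 46379 to 56560 in CKO and 62446 to 69989 in WT. All 4 were lower in CKO, with a median difference of -0.36. Thy1 fell (-0.46, limma adjusted p = 0.0326). Cd8b1 did not pass (-0.33, limma adjusted p = 0.0898), but for both genes all CKO samples lay below all WT samples. For Cd3e and Cd3g the groups overlapped. Cd4, Foxp3 and Cd40lg were below the filter on dim probes. The summed signal of 2 erythroid genes, Hba-a1 and Alas2, was 13494 in CKO1 but 164 to 382 in the other CKO samples, against 4468 to 13436 in WT. Summed signals of 3 macrophage genes were 289 to 1761 in CKO and 284 to 713 in WT, and those of 2 B cell genes 293 to 350 in CKO and 324 to 609 in WT. Sums were 959 to 1330 in CKO and 1087 to 2947 in WT for 5 dendritic cell genes, 557 to 924 in CKO and 656 to 1972 in WT for 4 neutrophil genes, and 880 to 1459 in CKO and 1106 to 2109 in WT for 4 NK cell genes. Of the dendritic cell genes, Flt3 and Clec9a were below the filter, and Itgax was the brightest. Itgax differed by -1.21, Xcr1 by -0.28 and Siglech by -0.04. Of the NK cell genes, Klra8 and Ncr1 were below the filter, while Klrb1c differed by -1.96 and Eomes by 0.19. For each of these tested genes the groups overlapped. The dendritic and NK cell sums thus rest on few genes and do not count cells. Of the neutrophil genes, Camp fell, at 6.31 ± 0.12 in CKO and 7.10 ± 0.18 in WT (SD, n = 4 each). The difference was -0.79 (limma adjusted p = 0.00345), with all CKO samples below all WT samples. Ngp, S100a8 and S100a9 differed by -0.40, -0.60 and -0.50, with overlapping groups, and did not pass. The part of all these marker signals in the results was not tested.

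Proteasome transcripts differed little between the genotypes, with 1 marked exception, the assembly factor Psmg1. Of the 41 genes tested, 3 rose in CKO cells (Psmg1, Psmd8 and Psmd7), 0 fell and 38 did not pass the threshold of 0.05 on the limma adjusted p. At an unadjusted p under 0.05, 8 were higher and 0 lower, while 23.3% of all 8095 genes tested had such a p, 12.4% higher and 10.9% lower. The 3 calls are 7.32% of the members tested, and over all 8095 genes tested 7.77% passed, 4.73% higher and 3.04% lower, so the share of calls was near that of genes at large. With the replicate number as a block, 4 members rose and 0 fell, where 12.6% of all genes tested passed in either direction. The median difference was 0.11 log2, against -0.01 over all genes tested, and 31 of 41 differences (75.6%) were above 0, against 47.3% over all genes. All 4 CKO samples lay above all 4 WT samples for 9 of the 41 (22.0%) and for 9.19% of all genes. None of the 41 had all CKO samples below all WT samples, as 6.49% of all genes had; both kinds together made up 15.7% of all genes. These shares of all genes were not matched to the members for brightness. In sorted cells measured in bulk, fewer cells of a kind and less RNA per cell cannot be told apart.

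**Figure D1:**
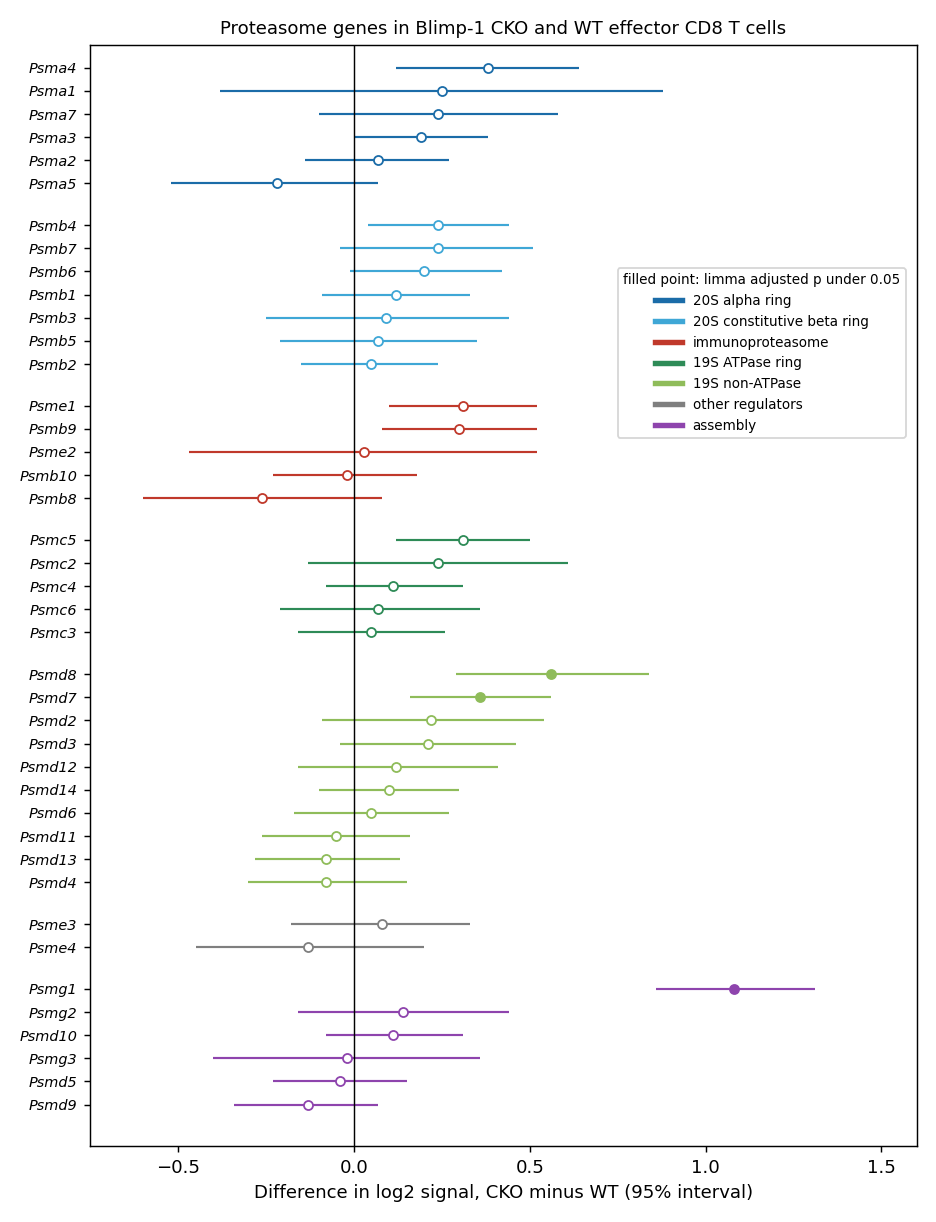
Difference in log2 signal (x axis, CKO minus WT) with its 95% interval for the 41 tested proteasome genes (y axis), grouped and coloured by role. Filled points passed the threshold: Psmg1 at 1.08, Psmd8 at 0.56 and Psmd7 at 0.36, while the intervals of 33 genes include 0.

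The precision was sufficient to bound most differences. The moderated standard error (SE) of the members ran from 0.08 to 0.28 log2, with a median of 0.10. The 95% interval lay wholly within a 1.5-fold change in either direction for 35 of the 41 genes, and 32 differed by less than 0.25 log2. The SEs and intervals come from the fit without pairing by replicate number, so variation shared by samples numbered alike enters them. Only Psmg1 differed by over 1.5-fold. Most of these probes were far from the floor of the array, with 30 of the 41 in the brightest 10% of all probes.

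Assembly factors held the largest difference. Psmg1, which pairs with Psmg2 to form the chaperone that guides assembly of the alpha ring, had log2 signals of 9.70, 9.78, 9.88 and 9.87 in CKO1 to CKO4 and of 8.77, 8.59, 8.92 and 8.63 in WT1 to WT4. Every CKO sample was thus higher than every WT sample, with a gap several times the spread within either group. The mean was 9.81 ± 0.09 in CKO and 8.73 ± 0.15 in WT (SD, n = 4 each). The difference of 1.08 (SE 0.10, limma adjusted p = 0.000577) corresponds to a 2.12-fold rise. Psmg1 had the 12th smallest p of the 8095 genes and ranked 58th by size among genes higher in CKO. Without the samples numbered 2 the difference was 1.05 (limma adjusted p = 0.00130). Psmg1 was measured by a single probe, so no other probe tests this result.

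The other assembly factors did not follow. Psmg2, the partner of Psmg1, was at 9.66, 10.14, 9.78 and 9.69 in CKO1 to CKO4 and at 9.53, 9.78, 9.88 and 9.50 in WT1 to WT4. The groups overlapped, with a difference of 0.14 (95% interval -0.16 to 0.44, limma adjusted p = 0.628). Psmg3, a member of the other alpha-ring chaperone, differed by -0.02 (interval -0.40 to 0.36). The chaperones of the 19S base, Psmd5, Psmd9 and Psmd10, differed by -0.04, -0.13 and 0.11, Psmd9 being at 7.64 ± 0.10 in CKO and 7.78 ± 0.09 in WT. Of the 6 assembly genes tested, 1 rose and 0 fell, with a median of 0.05, where 4.73% of all genes tested rose.

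**Figure D2:**
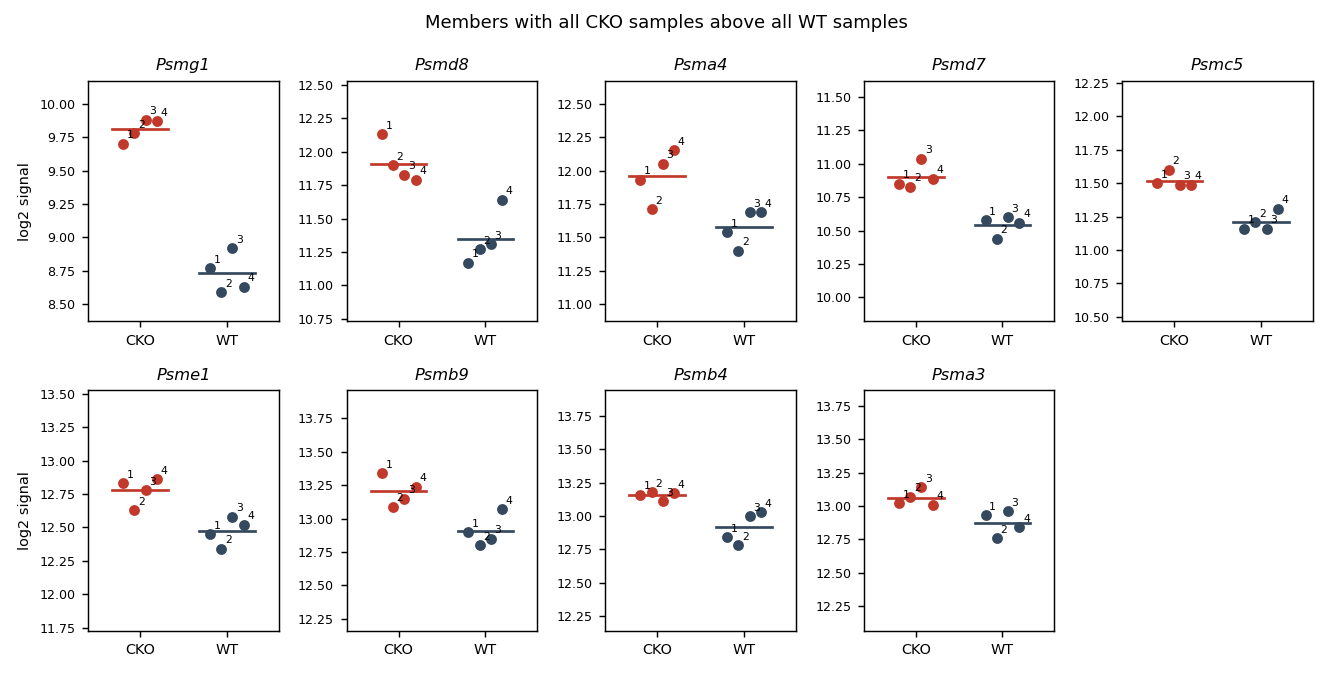
Log2 signal (y axis, each panel spanning the same range of log2 units) in each CKO and WT sample, numbered by replicate, for the 9 genes whose CKO samples all lay above all WT samples; bars are group means. The gap between the groups is widest for Psmg1, with means of 9.81 in CKO and 8.73 in WT, and narrowest in mean for Psma3, with 13.06 in CKO and 12.87 in WT.

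Among the non-ATPase subunits of the 19S particle, 2 of the 10 tested rose, 0 fell and the median was 0.11. By the same threshold 4.73% of all genes tested rose and 3.04% fell. Psmd8, a subunit of the lid, was at 12.13, 11.90, 11.83 and 11.79 in CKO1 to CKO4 and at 11.17, 11.27, 11.31 and 11.64 in WT1 to WT4. The groups did not overlap, although WT4 came close to CKO4. The mean was 11.91 ± 0.15 in CKO and 11.35 ± 0.20 in WT (SD, n = 4 each), a difference of 0.56 or 1.48-fold (SE 0.12, limma adjusted p = 0.0230). With 1 sample left out at a time it was kept in 3 of 8 cases (without CKO2, CKO4 or WT4), and the adjusted p ran from 0.0122 to 0.0754. Without both samples numbered 2 the difference was 0.54 (limma adjusted p = 0.0504). Its size varied between subsets, at 0.79 in samples numbered 1 and 2 alone and 0.34 in samples 3 and 4 alone. Psmd8 passed in neither subset (limma adjusted p = 0.213 and 0.180). No further probe measured Psmd8.

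Psmd7, the lid subunit that holds the deubiquitinase Psmd14 in its active pair, was at 10.85, 10.83, 11.04 and 10.89 in CKO1 to CKO4 and at 10.58, 10.44, 10.60 and 10.56 in WT1 to WT4. The groups did not overlap. The mean was 10.90 ± 0.09 in CKO and 10.54 ± 0.07 in WT (SD, n = 4 each), a difference of 0.36 or 1.28-fold (SE 0.09, limma adjusted p = 0.0404). This call was lost without any 1 sample other than CKO2, the adjusted p running from 0.0416 to 0.144. Without both samples numbered 2 the difference was 0.35 (limma adjusted p = 0.0551). On the dimmer probe of Psmd7 the groups overlapped, at 9.43 ± 0.43 in CKO and 9.14 ± 0.43 in WT, a difference of 0.28 (limma adjusted p = 0.593). With the mean of its probes, Psmd7 did not pass (0.32, limma adjusted p = 0.235).

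The partner of Psmd7, the deubiquitinase Psmd14, differed by 0.10 (interval -0.10 to 0.30). Psmd4, a receptor for ubiquitin chains, differed by -0.08 (interval -0.30 to 0.15). Psmd2, a large scaffold subunit of the base, was at 9.39 ± 0.20 in CKO and 9.17 ± 0.24 in WT, a difference of 0.22 (limma adjusted p = 0.436). Psmd3, a lid subunit, was at 11.60 ± 0.15 in CKO and 11.39 ± 0.14 in WT, a difference of 0.21 (limma adjusted p = 0.336). The lid subunits Psmd6, Psmd11, Psmd12 and Psmd13 ran from -0.08 to 0.12.

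None of the 5 ATPase ring genes measured passed, and all 5 differences were above 0, with a median of 0.11. Psmc5 came nearest, at 11.50, 11.60, 11.49 and 11.49 in CKO1 to CKO4 and 11.16, 11.21, 11.16 and 11.31 in WT1 to WT4. All CKO samples were above all WT samples, the difference being 0.31 (SE 0.08, limma adjusted p = 0.0559). Psmc5 passed under 3 other settings: with a stricter filter on dim probes, with 50 added to the linear signal, and with the trend and robust settings of limma (adjusted p = 0.0434, 0.0208 and 0.0452). Its dimmer probe overlapped between groups, with a difference of 0.39 (limma adjusted p = 0.266). Psmc2 in CKO lay 0.24 above the WT mean of 8.76 (SD 0.17 in CKO and 0.35 in WT), and Psmc3, Psmc4 and Psmc6 differed by 0.05, 0.11 and 0.07, all with overlapping groups.

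In the alpha ring, 0 of 6 genes passed and the median was 0.22. An unadjusted p under 0.05 was found for 1, where 23.3% of all genes tested had such a p. Psma4 had the largest difference, at 11.93, 11.71, 12.05 and 12.15 in CKO1 to CKO4 and 11.54, 11.40, 11.69 and 11.69 in WT1 to WT4. The groups touched without overlapping, since CKO2 lay just above WT3 and WT4. The difference was 0.38 (SE 0.12, limma adjusted p = 0.0922). With the replicate number as a block Psma4 passed at the same difference of 0.38 (limma adjusted p = 0.0250), as it did without both samples numbered 2, at 0.40 (adjusted p = 0.0424). Psma3 also had all CKO samples above WT, at 13.06 ± 0.06 in CKO and 12.87 ± 0.09 in WT, a difference of 0.19 (limma adjusted p = 0.255). Psma5 was the alpha ring gene with a negative difference, at 8.42 ± 0.13 in CKO and 8.64 ± 0.25 in WT (-0.22, limma adjusted p = 0.398). Psma7 was at 10.93 ± 0.25 in CKO and 10.69 ± 0.24 in WT, a difference of 0.24, and Psma1 and Psma2 differed by 0.25 and 0.07.

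In the constitutive beta ring, 0 of 7 genes passed, with 1 at an unadjusted p under 0.05, where 23.3% of all genes had such a p. All 7 differences were above 0, between 0.05 and 0.24, with a median of 0.12. Psmb4, a structural subunit needed to close the ring, was at 13.16, 13.18, 13.11 and 13.17 in CKO1 to CKO4 and 12.84, 12.78, 13.00 and 13.03 in WT1 to WT4. The CKO samples were tightly grouped above WT, and the difference was 0.24 (SE 0.09, limma adjusted p = 0.158). Psmb1, Psmb2 and Psmb3, noncatalytic subunits of the ring, differed by 0.12, 0.05 and 0.09.

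The constitutive catalytic subunits overlapped between the groups. Psmb5, the chymotrypsin-like subunit, was at 10.94, 11.30, 11.24 and 11.25 in CKO1 to CKO4 and 10.83, 11.19, 11.13 and 11.29 in WT1 to WT4, a difference of 0.07 (limma adjusted p = 0.814). Psmb6, the caspase-like subunit, was at 12.43, 12.61, 12.47 and 12.35 in CKO1 to CKO4 and 12.16, 12.24, 12.41 and 12.24 in WT1 to WT4, a difference of 0.20 (limma adjusted p = 0.274). Psmb7, the trypsin-like subunit, was at 11.82, 11.59, 11.81 and 11.73 in CKO1 to CKO4 and 11.43, 11.25, 11.55 and 11.78 in WT1 to WT4, a difference of 0.24 (limma adjusted p = 0.319). In each of these genes at least 1 WT sample lay among the CKO samples.

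The immunoproteasome genes showed no common direction. Of the 5, 0 passed in limma and 2 had an unadjusted p under 0.05, with a median of 0.03. Such a p was found for 23.3% of all genes tested, 12.4% being higher in CKO. Psmb9 was at 13.34, 13.09, 13.15 and 13.24 in CKO1 to CKO4 and 12.90, 12.80, 12.85 and 13.07 in WT1 to WT4. All CKO samples were above all WT samples, CKO2 by the least, and the difference was 0.30 (SE 0.10, limma adjusted p = 0.107). Psmb8, by contrast, was at 10.45, 10.19, 10.27 and 10.24 in CKO1 to CKO4 and 10.22, 10.76, 10.32 and 10.89 in WT1 to WT4. WT2 and WT4 were high while WT1 and WT3 lay among the CKO samples, and the difference was -0.26 (SE 0.15, limma adjusted p = 0.397). Psmb10 was at 11.93, 11.84, 12.07 and 12.01 in CKO1 to CKO4 and 11.90, 12.07 and 11.99 in WT1 to WT3, with WT4 level with WT3. Here the groups lay within each other, with a difference of -0.02 (95% interval -0.23 to 0.18), and the further probe gave -0.06 (interval -0.24 to 0.12).

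Both subunits of PA28 were measured. Psme1 was at 12.83, 12.63, 12.78 and 12.86 in CKO1 to CKO4 and 12.45, 12.34, 12.58 and 12.52 in WT1 to WT4. The groups did not overlap, and the difference was 0.31 (SE 0.10, limma adjusted p = 0.0892); it passed with 50 added to the linear signal (adjusted p = 0.0483). The further probe of Psme1 gave 0.21 with overlapping groups (limma adjusted p = 0.416). Psme2 was at 9.23, 8.54, 9.28 and 9.47 in CKO1 to CKO4 and 9.11, 8.59, 9.39 and 9.32 in WT1 to WT4. CKO2 and WT2 were the low samples of their groups, and the difference was 0.03 with a wide interval, -0.47 to 0.52. This interval is from the fit without pairing by replicate number, so the low values that CKO2 and WT2 share widen it. With the replicate number as a block Psme2 did not pass either (limma adjusted p = 0.887).

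**Figure D3:**
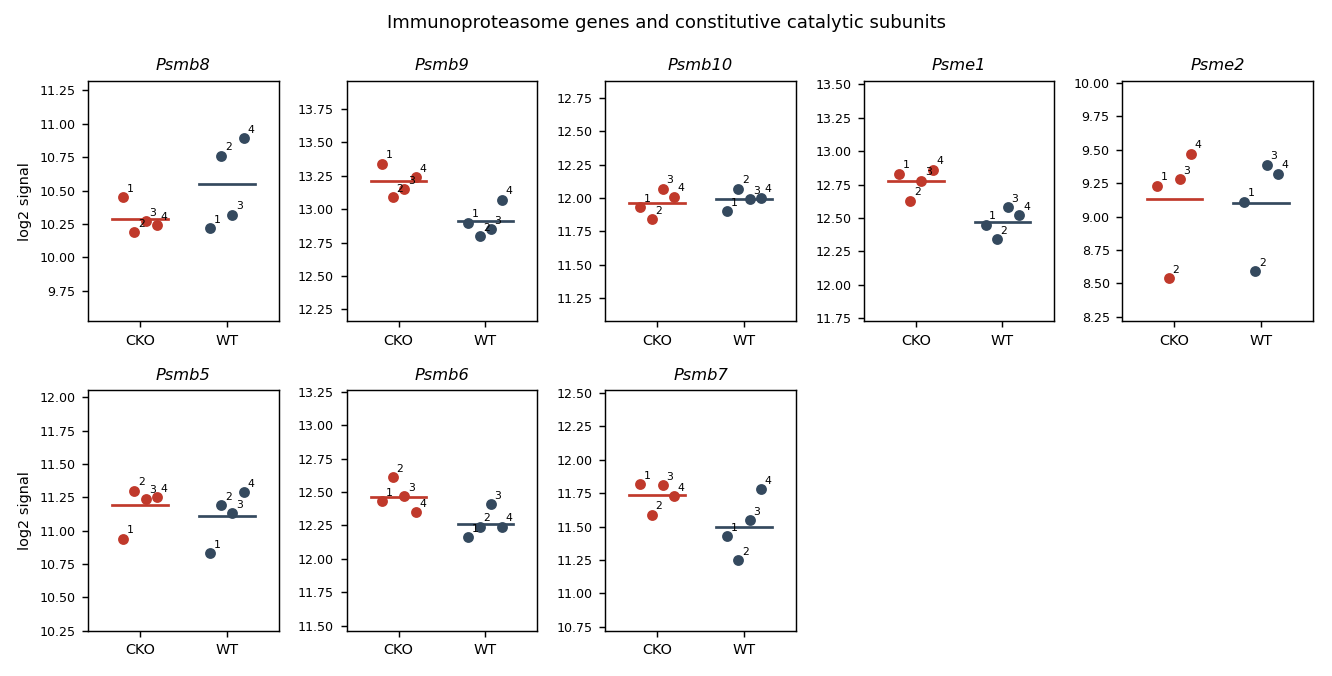
Log2 signal (y axis, each panel spanning the same range of log2 units) in each CKO and WT sample, numbered by replicate, for the 5 immunoproteasome genes and the 3 constitutive catalytic subunits; bars are group means. Psmb9 and Psme1 have all CKO samples above WT, Psmb8 has 2 high WT samples, WT2 and WT4, and Psmb10 coincides between the groups.

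Each immunoproteasome subunit was set against the constitutive subunit it replaces, as the difference of their log2 signals in the same sample. The size of this difference depends on the probes, and only its change between groups can be read. For Psmb8 minus Psmb5 it was -0.49, -1.11, -0.97 and -1.01 in CKO1 to CKO4 and -0.61, -0.43, -0.81 and -0.40 in WT1 to WT4. CKO1 lay among the WT samples and the other CKO samples below them, a shift of -0.33. For Psmb9 minus Psmb6 the means were 0.74 ± 0.20 in CKO and 0.64 ± 0.17 in WT (SD, n = 4 each), with overlapping groups and a shift of 0.10. For Psmb10 minus Psmb7 they were 0.22 ± 0.08 in CKO and 0.49 ± 0.25 in WT, again overlapping, with a shift of -0.26. In none of the 3 pairs did the groups separate.

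The remaining regulators also stayed close. Psme3, the nuclear PA28 subunit, differed by 0.08 (interval -0.18 to 0.33) and Psme4, the activator PA200, by -0.13 (interval -0.45 to 0.20). Psmc3ip, a meiotic recombination factor named for binding an ATPase subunit, differed by 0.06, and Psme3ip1 by -0.01.

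Per sample, the median of the 41 genes relative to the WT mean was 0.13, 0.14, 0.13 and 0.09 in CKO1 to CKO4 and -0.02, -0.08, 0.04 and 0.06 in WT1 to WT4. Each CKO sample was thus slightly above each WT sample. Over all genes tested this median ran from -0.04 to 0.04 in CKO and from -0.01 to 0.04 in WT. The immunoproteasome genes were less even: their median was 0.13, -0.15, 0.18 and 0.33 in CKO1 to CKO4 and -0.02, -0.10, 0.00 and 0.16 in WT1 to WT4. CKO2 was the lowest of all 8 samples and CKO4 the highest. Interferon-stimulated genes, whose products share inducers with the immunoproteasome, had medians of -0.21, -0.02, 0.89 and 1.29 in CKO1 to CKO4 and 0.05, 0.15, -0.15 and 0.08 in WT1 to WT4. Both these medians were highest in CKO4, with CKO3 next among the CKO samples. Single immunoproteasome genes differed in this: among the CKO samples, Psmb8 and Psmb9 were highest in CKO1. Psmb10 was highest in CKO3, and Psme1 and Psme2 in CKO4. The summed signal of the 3 macrophage genes was also highest in CKO4, at 1761, against 289 to 546 in the other CKO samples and 284 to 713 in WT. The part of the interferon-stimulated genes and of the macrophage signal in the values of the immunoproteasome genes was not tested.

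**Figure D4:**
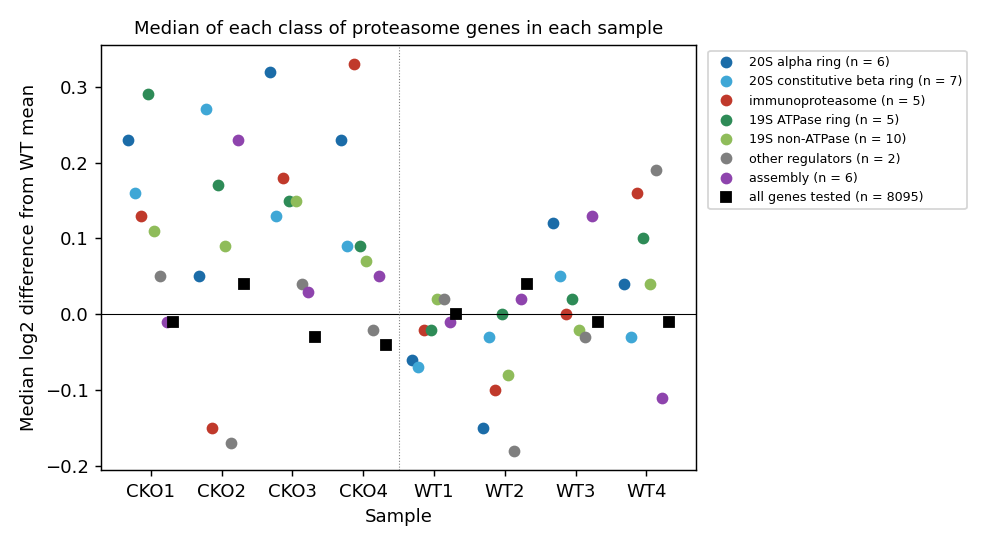
Median log2 difference from the WT mean (y axis) in each sample (x axis), by class of proteasome genes and for all 8095 genes tested (black squares). Medians of the 20S and 19S subunit classes are above 0 in all 4 CKO samples, between 0.05 and 0.32. In WT they lie between -0.15 and 0.12. The groups overlap for the alpha ring (0.05 in CKO2, 0.12 in WT3) and the ATPase ring (0.09 in CKO4, 0.10 in WT4). Medians of the immunoproteasome run from -0.15 in CKO2 to 0.33 in CKO4.

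Of 12 interferon-stimulated genes listed, 8 were tested; 2 rose and 0 fell, with a median of 0.45, where 7.77% of all genes tested passed. At an unadjusted p under 0.05, 4 were higher and 1, Irf1, was lower, where 23.3% of all genes tested had such a p. Usp18, which removes the ubiquitin-like protein Isg15 and dampens interferon signalling, was 2.95-fold higher (limma adjusted p = 0.00936) and Ly6e, a surface protein, 1.35-fold (adjusted p = 0.0488). Irf1, a transcription factor that drives Psmb8 and Psmb9, was at 10.37 ± 0.17 in CKO and 10.69 ± 0.10 in WT, a difference of -0.32 that did not pass (limma adjusted p = 0.118) although the groups did not overlap.

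Genes that work beside the proteasome were similarly close. Of 14 partners listed, 9 were tested and 0 passed in limma, with 0 at an unadjusted p under 0.05 and a median of 0.09. Over all genes tested, 23.3% had such a p. Nearest were Usp14, a deubiquitinase bound to the 19S base, at 0.18 (limma adjusted p = 0.291), and Uchl5, another such enzyme, at 0.23 (adjusted p = 0.471). Pomp, which matures the core and acts after Psmg1, differed by 0.09, and Nfe2l1, the factor that raises proteasome genes when activity falls short, by 0.05. Of 13 ubiquitin supply and shuttling genes, 5 were tested and 0 passed, with 1 at an unadjusted p under 0.05: Vcp, the ATPase that extracts ubiquitinated proteins, at 0.28 with groups that did not overlap (limma adjusted p = 0.118). The next was Nsfl1c, a Vcp cofactor, at 0.19 (adjusted p = 0.415).

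Of 12 class I peptide loading genes, 8 were tested and 0 passed in limma, with a median of 0.01. An unadjusted p under 0.05 was found for 1, where 23.3% of all genes tested had such a p. H2-K1, a class I heavy chain, was at 13.58 ± 0.13 in CKO and 13.99 ± 0.16 in WT, a difference of -0.41 (limma adjusted p = 0.0541), without overlap of the groups. Heavy chain genes resemble each other closely, so this probe may report several. Next was Pdia3, of the loading complex, at 0.31 (adjusted p = 0.393). Psmb9, Tap1, Psmb8 and Tap2 follow each other in this order on chromosome 17, Tap1 and Tap2 being the subunits of the peptide transporter. Their differences were 0.30, -0.01, -0.26 and -0.16. None passed, and Psmb9 alone of the row had a difference above 0.

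Where a gene had several tested probes, these mostly differed little between groups. The 11 such genes had 12 further tested probes, of which 7 had the same sign as the brightest probe and 0 passed in limma. For the other 30 genes, Psmg1 and Psmd8 among them, the result rests on 1 tested probe.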

How the data were processed

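Per the labels' protocols, total RNA was amplified with an Illumina kit and biotinylated. The table deposited by the authors lists 24048 probes with log2 values, 66 of them empty. Scanner, background correction and normalization method are not stated in the labels. Array medians were all 6.15 and the sorted arrays nearly coincided, so the values were taken as normalized between arrays and used unchanged. Gene names came from the platform annotation (19397 named probes); the 18S control probe was left unnamed. Each gene was represented by its brightest probe. Probes with a mean above 6.12, the median of all, were tested: 11991 probes, of 8095 genes. The genotypes were compared by a two-sided test in limma 3.58.1 (R 4.3.3, functions lmFit and eBayes), and p-values were adjusted by the Benjamini-Hochberg method across every tested probe. The fit was tested on simulated data. The number of arrays limits the precision. The labels call the 4 samples per group independent but name no animals, so p-values measure the spread between samples, which may be technical.

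Members, classes and lists were chosen with earlier results of these data known. All members are named: with values per sample for the immunoproteasome, its counterparts and called genes (those given likewise for Psmg2, Psmc5, Psma4 and Psmb4 were chosen after their values were seen), and partner lists by up to 4 genes past the threshold or the 2 with the smallest p; Pomp, Nfe2l1 and Irf1, and the neighbours of Psmb8, were chosen after their values were seen. List members not on the array were not analysed here. Samples numbered alike deviated together across probes (correlations 0.318, 0.468, 0.178 and 0.224), each over 0.1, so the numbers were taken to pair the samples. The main fit has no block, and the blocked fit stands beside any result whose call it changed. Alternatives were the block, other filters, normalizations, offsets and eBayes settings, the mean of probes, and subsets of samples.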

Additional observations from a re-analysis of the deposited data

Results flagged for a closer look

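In 3 of the 82 groups of 4 samples examined, 1 sample lay far from the other 3 for its spread. Chance flags about 1 in 20 groups. Psmc5 in CKO2 was at 11.60, with the other CKO samples at 11.49 to 11.50. Psmd3 in WT3 was at 11.18, with the other WT samples at 11.44 to 11.47. Psme3 in WT4 was at 10.79, with the other WT samples at 10.40 to 10.43.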

How the results depend on the processing

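Each result was recomputed under 20 other settings. Of 819 values for single members, 763 kept their direction and their side of the threshold, and 21 of the 41 members did so under every setting run. Psmg1 passed under all settings except samples numbered 1 and 2 alone (1.06, limma adjusted p = 0.112). With the replicate block, 556 genes were higher and 461 lower, 12.6% of all tested, and 4 members rose, Psma4 being added; no other call on a member changed. With samples 1 and 2 alone, 11 genes were higher, 8 lower and 0 members passed in limma. With samples 3 and 4 alone, 406 genes were lower and 1 member rose. With 50 added to the linear signal, 5 members rose; with 32 subtracted, Psmd7 was at 0.37 and did not pass (limma adjusted p = 0.0851). With 1 sample left out, 189 to 419 genes were higher, 102 to 341 lower, and 1 to 4 members rose: 1 without CKO1, CKO3, WT1, WT2 or WT3. The same settings gave medians of 0.06 to 0.18 for the constitutive beta ring, the lowest without CKO2, and of -0.04 to 0.22 for the immunoproteasome, the highest without CKO2. The beta ring median was 0.07 without both samples numbered 2. The ATPase ring median was 0.21 in samples 1 and 2 and 0.06 in samples 3 and 4. Reversals concerned small differences that passed in no setting: Psmd13 was at 0.02 with the mean of its probes and 0.04 in samples 1 and 2, and Psmc6 at -0.02 there. Without both samples numbered 2, Psmb10 was at 0.05 and Psmc3 at -0.04. In samples 3 and 4, Psma2 and Psmb2 were at -0.04, Psmb10 at 0.05, Psmc3 at -0.11, Psmd5 at 0.03, Psmd6 at -0.02 and Psme3 at -0.03. With 1 sample left out, ranges were -0.02 to 0.14 for Psmc6, -0.08 to 0.01 for Psmd11, -0.14 to 0.22 for Psme2, -0.14 to 0.08 for Psmg3, -0.06 to 0.02 for Psmb10, -0.03 to 0.20 for Psmb3, 0.00 to 0.09 for Psmc3 and -0.02 to 0.15 for Psmb5. The causes were not tested.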

Other observations

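Probes of proteasome genes were more often at their lowest in the samples numbered 2 than probes at large, although most were not. Of the 53 tested probes of members, 16 (30.2%) had their lowest CKO value in CKO2 and their lowest WT value in WT2, against 16.7% of all tested probes. Only 6 (11.3%) were highest in both, against 19.6% of all tested probes. The module as a whole was not low in CKO2. Relative to the WT mean, the median of the 41 genes was 0.14 in CKO2, the highest of the CKO samples, and -0.08 in WT2, the lowest of the WT samples. Among the 16 were Psme2, at 8.54 in CKO2 and 8.59 in WT2, Psma1, at 9.12 in CKO2 and 8.93 in WT2, and both tested probes of Psmb7, Psmd2 and Psmd7. For Psmd13 the dimmer probe was among the 16. The brightest probe of Psmd13, by contrast, was at 11.88 in CKO2, its highest CKO value, and at 11.75 in WT2, level with WT3 as the lowest WT values. The 2 samples had the lowest 18S ribosomal RNA signals of all 8, whose part in the pattern was not tested.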
